A study of Drosophila melanogaster with 9 samples.

Results

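Heat shock proteins and chaperones keep other proteins folded, and they were followed here over untreated, cleanly injured and pinched *Drosophila* larvae. The 9 genes considered are the small heat shock protein genes *Hsp22*, *Hsp23*, *Hsp26* and *Hsp27*, the cytosolic chaperone genes *Hsp83* and *Hsc70-4*, the endoplasmic reticulum (ER) chaperone gene *Hsc70-3*, and the mitochondrial chaperone genes *Hsp60A* and *Hsc70-5*. Members were chosen by gene symbol in the array annotation. Of the 9 genes, 7 have a probe set, out of 12548 genes that have one, and they hold 8 of the 18769 probe sets tested. Only 6 of them have a probe set of their own, because the 2 probe sets of *Hsp22* also read *CG4456*, a neighbouring gene for which the gene table lists the name *Hsp67Bb*. No probe set carries the symbol *Hsp23* or *Hsp83*, so these genes were not analysed here.

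The levels come from 9 Affymetrix arrays of the Drosophila Genome 2.0 design, each hybridized with RNA of whole *y w* larvae of the 3rd instar. Untreated larvae, larvae pricked cleanly with a fine tungsten needle and larvae pinched with forceps have 3 arrays each, and the treated larvae were collected 4 h after the injury. All larvae share the *y w* background, and no array of uninjured larvae kept for the same 4 h was used here, so that time, handling and injury cannot be told apart in a comparison with untreated larvae. The labels call the arrays of a group biological replicates. How many larvae each array holds is not given for the arrays in the sources used here.

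Small heat shock proteins bind unfolding proteins and hold them soluble without ATP. Chaperones of the Hsp70 family take up such proteins and refold them in cycles of ATP hydrolysis, helped by J-domain proteins. The cytosol, the ER and the mitochondrion each have an Hsp70 of their own, and in the mitochondrial matrix the barrel-shaped chaperonin Hsp60 finishes the folding of imported proteins. In *Drosophila* the inducible *Hsp70* genes and the small heat shock protein genes are switched on by heat shock factor, and several small heat shock protein genes are also switched on by the moulting hormone ecdysone late in larval life. The *Hsc70* genes, named cognates, are expressed without heat.

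All levels below are deposited log2 values, in which a difference of 1 means 2-fold, and levels of different probe sets cannot be set against each other. Differences were tested with limma over all 18769 probe sets, and higher or lower is said of a probe set whose Benjamini-Hochberg adjusted p was under 0.05. Control probe sets read the 3′ and 5′ ends of long transcripts. In untreated replicate 1 the 3′ end of the actin control stood 4.77 above the 5′ end on the log2 scale, against 2.41 to 3.38 on the other 8 arrays, and for *eIF-4a* the difference was 5.96 against 3.27 to 3.70. For 18S rRNA it was 3.66 in that array, 1.42 in pinching replicate 1 and -1.06 to -0.12 in the other 7. Calls of chaperones and related genes against untreated larvae are therefore also given without untreated replicate 1, the J-domain gene *jdp* excepted. So are the differences of the members and of the *Hsp70* probe sets. Calls lost without pinching replicate 1 are among the leave-one-out fits described. Of 5 muscle genes *Act87E* was lower after both treatments, with summed muscle levels (log2) of 14.01 to 14.24 in untreated larvae, 13.71 to 14.03 after clean injury and 13.89 to 14.16 after pinching. Of 6 hemocyte genes, *Pxn* was lower and *He* higher after clean injury, and of 7 midgut genes *alphaTry* was higher after clean injury. Of the 7 midgut differences after clean injury 5 were positive and 2 negative, with a median of 0.04. Summed midgut levels (log2) were 15.42 to 15.60 in untreated larvae, 15.53 to 15.65 after clean injury and 15.54 to 15.62 after pinching. Of 6 testis genes none passed, but all 6 differences were positive after either treatment. Summed testis levels (log2) were 10.41 to 10.80 in untreated larvae, 10.41 to 11.76 after clean injury and 10.75 to 11.42 after pinching. Of 6 salivary gland genes none passed, and after either treatment 5 differences were positive and 1 negative. The part of these tissues in the results was not tested.

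The only members called lower were mitochondrial chaperones, and none of their calls was kept without untreated replicate 1. The ER member *Hsc70-3* also lay below all untreated arrays after pinching (log2 difference -0.47) but did not pass. *Hsp60A* was lower after both treatments, *Hsc70-5* was lower after pinching, and no member was called higher in any comparison. After pinching 2 of the 8 probe sets were lower and 6 did not pass, while over all probe sets 9.2% were called, 4.21% higher and 4.99% lower. After clean injury 1 of the 8 was lower and 7 did not pass, while 10.2% of all probe sets were called, 5.22% higher and 4.93% lower. At an unadjusted p under 0.05 there were 4 of the 8 after pinching and 5 after clean injury, in either direction, against 23.5% and 25% of all probe sets. The median log2 difference of the 8 was -0.06 after pinching and 0.06 after clean injury, and over all probe sets it was -0.02 and -0.04. These are shares of few probe sets, and in RNA of whole larvae fewer cells of a type and less RNA per cell cannot be told apart.

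**Figure D1:**
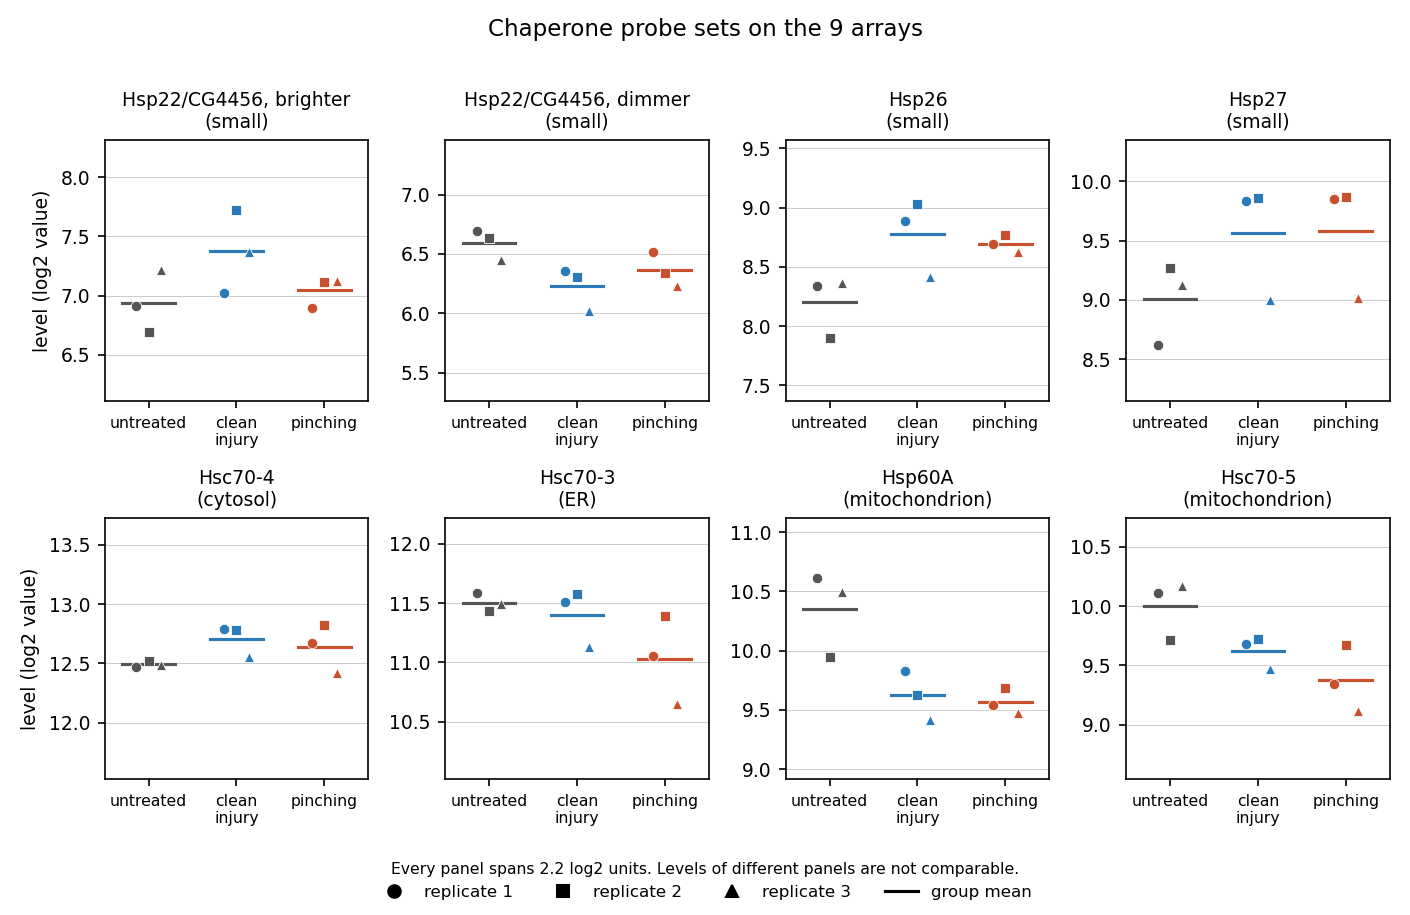
Level (log2 value) of the 8 chaperone probe sets on each of the 9 arrays, by group, with 1 symbol per replicate number and a line at the group mean. *Hsp60A* lies between 9.95 and 10.61 in untreated larvae and between 9.42 and 9.83 after either treatment, while *Hsp27* has 1 low array in each treated group, replicate 3 both times.

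None of the 4 probe sets of small heat shock proteins passed the test. *Hsp26*, whose protein acts in the cytosol and is known for its heat and ecdysone response, stood at 8.34, 7.90 and 8.36 in untreated larvae (replicates 1, 2 and 3), at 8.89, 9.03 and 8.42 after clean injury and at 8.69, 8.77 and 8.62 after pinching. All 6 arrays of treated larvae lay above the 3 untreated ones, and clean injury replicate 3 lay closest to them. The log2 difference was 0.58 (standard error 0.18, adjusted p = 0.0638, limma) after clean injury and 0.50 (standard error 0.18, adjusted p = 0.115, limma) after pinching. The difference after clean injury passed when the replicate number was a block (adjusted p = 0.0405, limma) and when clean injury replicate 3 was left out (0.76, adjusted p = 0.0177, limma). The differences were 0.65 and 0.57 without untreated replicate 1, and neither passed.

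*Hsp27*, which encodes a small heat shock protein found mainly in the nucleus, stood at 8.62, 9.27 and 9.12 in untreated larvae, at 9.83, 9.86 and 8.996 after clean injury and at 9.85, 9.87 and 9.01 after pinching. Replicates 1 and 2 of both treatments lay above every untreated array, and replicate 3 of both lay within the untreated range. The log2 difference was 0.56 after clean injury (standard error 0.29, adjusted p = 0.264, limma) and 0.57 after pinching (standard error 0.29, adjusted p = 0.271, limma), so that the spread within the groups was as wide as the difference. Without untreated replicate 1, the lowest array, these became 0.37 and 0.38.

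*Hsp22* encodes the small heat shock protein of the mitochondrial matrix. Its 2 probe sets cannot separate it from *CG4456*, and they moved in opposite directions. The brighter stood at 6.91, 6.69 and 7.22 in untreated larvae, 7.03, 7.72 and 7.37 after clean injury, and 6.90, 7.11 and 7.12 after pinching. The dimmer stood at 6.70, 6.64 and 6.45, then 6.35, 6.31 and 6.02, and 6.51, 6.34 and 6.23 in the same order of groups. The arrays of clean injury were all below the untreated ones in the dimmer probe set and overlapped them in the brighter. The log2 differences after clean injury were 0.43 (standard error 0.19, adjusted p = 0.181, limma) and -0.37 (standard error 0.13, adjusted p = 0.109, limma). That of the dimmer passed with the replicate number as a block (adjusted p = 0.0264, limma). After pinching the differences were 0.10 and -0.23, with adjusted p of 0.782 and 0.317 (limma). With untreated replicate 1 left out, the brighter and the dimmer gave 0.42 and -0.32 after clean injury and 0.089 and -0.18 after pinching. No direction can be given for *Hsp22* from these probe sets.

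In the RefSeq gene table (Release 6 plus ISO1 MT) the small heat shock protein genes stand side by side, in the order *Hsp67Bc*, *CG4456*, *Hsp22*, *CG4461*, *Hsp26*, *Hsp67Ba*, *Hsp23* and *Hsp27*, with 1 antisense RNA gene before *Hsp23*. *CG4461*, which the table also lists as *Hsp20*, stood between 3.21 and 3.88 on all arrays and did not pass in either comparison. Genes on both sides of the cluster were measured too. *CG4080* comes after *Hsp27* and the pseudogenes *CR43483* and *CR43482* in that order. It rose after pinching by a log2 difference of 0.68 (standard error 0.13, adjusted p = 0.00908, limma), from 6.70 to 6.88 in untreated larvae to 7.35 to 7.57. *CG4080* stayed called in each of the 9 fits that left out an array. After clean injury its difference was 0.45 (adjusted p = 0.0519, limma). *CG4452*, on the other side beyond *Fdx1*, rose after pinching by 0.56 (adjusted p = 0.0401, limma). This difference passed in 2 of those 9 fits, those without untreated replicate 2 or pinching replicate 1, and was 0.49 without untreated replicate 1. *Fdx1* and *eIF4E1* did not pass. *CG4080* and *CG4452* were named after their values were seen.

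Of the cytosolic chaperones only *Hsc70-4* was measured, the constitutive Hsp70 of the cytosol, which also strips clathrin from vesicles. It stood at 12.47, 12.52 and 12.49 in untreated larvae, at 12.79, 12.78 and 12.55 after clean injury and at 12.67, 12.83 and 12.42 after pinching. The untreated arrays had an SD of 0.024, and the treated arrays spread over a wider range. The log2 difference was 0.21 after clean injury (95% interval -0.06 to 0.49, adjusted p = 0.316, limma) and 0.15 after pinching (-0.13 to 0.42, adjusted p = 0.521, limma). With untreated replicate 1 left out they were 0.20 and 0.14. The intervals leave out changes of 2-fold in either direction.

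*Hsc70-3* encodes BiP, the Hsp70 of the ER, which is induced in the unfolded protein response. It stood at 11.58, 11.43 and 11.49 in untreated larvae, at 11.50, 11.57 and 11.13 after clean injury and at 11.06, 11.39 and 10.64 after pinching. All 3 pinched arrays were below the untreated ones, replicate 2 by little, while clean injury overlapped them. The log2 difference after pinching was -0.47 (standard error 0.18, adjusted p = 0.155, limma), and it passed with the replicate number as a block (adjusted p = 0.0488, limma). It was -0.43 (adjusted p = 0.331, limma) without untreated replicate 1 and -0.28 (adjusted p = 0.371, limma) without pinching replicate 3, the lowest array. After clean injury it was -0.10 (95% interval -0.51 to 0.31, adjusted p = 0.768, limma), or -0.058 without untreated replicate 1. The difference between the treatments themselves was -0.37 (95% interval -0.78 to 0.04) and did not pass.

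*Hsp60A* encodes the mitochondrial chaperonin. It stood at 10.61, 9.95 and 10.50 in untreated larvae, at 9.83, 9.63 and 9.42 after clean injury and at 9.54, 9.68 and 9.47 after pinching. Every treated array lay below every untreated one, and untreated replicate 2 came closest. The fall was 1.73-fold after pinching (log2 difference -0.79, standard error 0.18, adjusted p = 0.0201, limma) and 1.66-fold after clean injury (-0.73, standard error 0.18, adjusted p = 0.0271, limma). Without untreated replicate 1 the differences were -0.66 (adjusted p = 0.0834, limma) and -0.60 (adjusted p = 0.106, limma), and neither was called. The call after pinching was also lost without untreated replicate 3 (-0.72) or pinching replicate 3 (-0.74), and that after clean injury without untreated replicate 3 (-0.66), clean injury replicate 2 (-0.73) or clean injury replicate 3 (-0.62). The direction was the same in all these fits.

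*Hsc70-5* encodes the Hsp70 of the mitochondrial matrix, which pulls proteins in through the import channel and hands them on for folding. It stood at 10.11, 9.72 and 10.17 in untreated larvae, at 9.68, 9.72 and 9.47 after clean injury and at 9.34, 9.67 and 9.11 after pinching. All pinched arrays were below the untreated ones, although pinching replicate 2 differed from untreated replicate 2 by little, and clean injury met the untreated range at that replicate. The fall after pinching was 1.54-fold (log2 difference -0.62, standard error 0.17, adjusted p = 0.0449, limma). Leaving out 1 array at a time, it was called in 2 of 9 fits, those without untreated replicate 2 or pinching replicate 2, and in the other 7 it lay between -0.62 and -0.49, with -0.57 (adjusted p = 0.147, limma) without untreated replicate 1. After clean injury the difference was -0.37 (95% interval -0.75 to -0.00087, adjusted p = 0.199, limma), and -0.32 without untreated replicate 1.

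**Figure D2:**
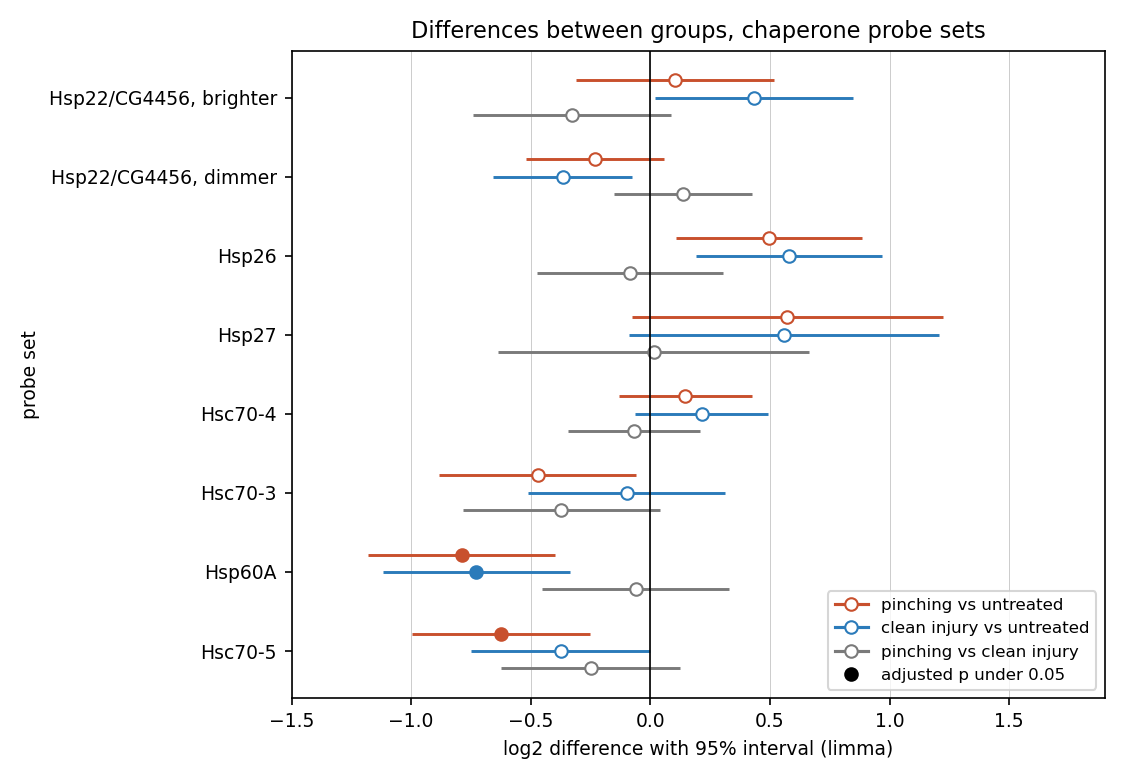
Log2 difference of each of the 8 chaperone probe sets (x axis) with its 95% interval, for the 3 comparisons between groups, with filled points where the adjusted p was under 0.05. Filled points belong to *Hsp60A* at -0.79 and -0.73 and to *Hsc70-5* at -0.62, and every interval of pinching against clean injury crosses 0.

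Pinching was then set against clean injury directly. None of the 8 probe sets passed in limma, and 0 of them reached an unadjusted p under 0.05, against 1.66% of all probe sets. Of all probe sets 0.00533% were called, which is 1 probe set. The differences lay between -0.37 for *Hsc70-3* and 0.14 for the dimmer probe set of *Hsp22* and *CG4456*. For *Hsp60A* the difference was -0.06 (95% interval -0.45 to 0.33), for *Hsc70-5* -0.25 (-0.62 to 0.12) and for *Hsp26* -0.08 (-0.47 to 0.31). For *Hsp27* the interval was wider, from -0.64 to 0.66. The *Hsc70-5* call after pinching and its absence after clean injury therefore do not show that the treatments differed.

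The inducible Hsp70 genes, which are not among the 9 but work beside them, were read only by probe sets that match several of the nearly identical copies, and these were named after their values were seen. Levels of 3 of them rose after clean injury. Detection calls were not used, so whether their low untreated levels lie above background is not known, and the folds are those of the deposited values. The probe set of *Hsp70Aa* and *Hsp70Ab* stood at 3.41, 4.07 and 4.61 in untreated larvae, at 6.09, 7.34 and 6.99 after clean injury and at 4.79, 6.68 and 5.47 after pinching. All treated arrays lay above the untreated ones, and the lowest was pinching replicate 1. The rise after clean injury was 6.84-fold (log2 difference 2.77, standard error 0.48, adjusted p = 0.00563, limma), called in each of the 9 fits that left out an array, with 2.47 without untreated replicate 1. After pinching the difference was 1.61 (standard error 0.48, adjusted p = 0.0642, limma). It passed with the replicate number as a block (adjusted p = 0.00193, limma) and without pinching replicate 1 (2.04, adjusted p = 0.0320, limma), and it was 1.31 without untreated replicate 1.

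A probe set of *Hsp70Bbb*, *Hsp70Bc*, *Hsp70Bb* and *Hsp70Ba* stood at 3.13, 2.94 and 4.52 in untreated larvae, at 5.26, 6.58 and 5.96 after clean injury and at 4.69, 5.61 and 4.98 after pinching. Untreated replicate 3 was the highest of its group and lay just below the lowest pinched array. The rise after clean injury was 5.29-fold (log2 difference 2.40, standard error 0.44, adjusted p = 0.00727, limma), again called in all 9 fits, with 2.204 without untreated replicate 1. After pinching the difference was 1.56 (adjusted p = 0.0509, limma), and it passed with the replicate number as a block (adjusted p = 0.0127, limma), without untreated replicate 3 (2.06) and without clean injury replicate 1 (1.56, adjusted p = 0.0446, limma), and was 1.36 without untreated replicate 1. A probe set of *Hsp70Bc* and *Hsp70Bb* rose 2.27-fold after clean injury (adjusted p = 0.0460, limma), and passed in 3 of the 9 fits, those without pinching replicate 1 or 2 or clean injury replicate 1 (log2 difference 1.14 without untreated replicate 1). Its difference after pinching was 0.64 (adjusted p = 0.267, limma), or 0.60 without untreated replicate 1. A further probe set of the *Hsp70B* copies stayed between 1.67 and 2.05 on all arrays.

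The difference between the treatments was tested for these probe sets as well. For *Hsp70Aa* and *Hsp70Ab* pinching stood 1.16 below clean injury on the log2 scale (95% interval -2.22 to -0.10), with an unadjusted p of 0.0353 but an adjusted p of 0.9999 (limma). For the *Hsp70B* probe set with a rise of 5.29-fold the difference was -0.84 (-1.81 to 0.13). Neither passed, so the calls after clean injury alone do not show that the treatments differ.

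**Figure D3:**
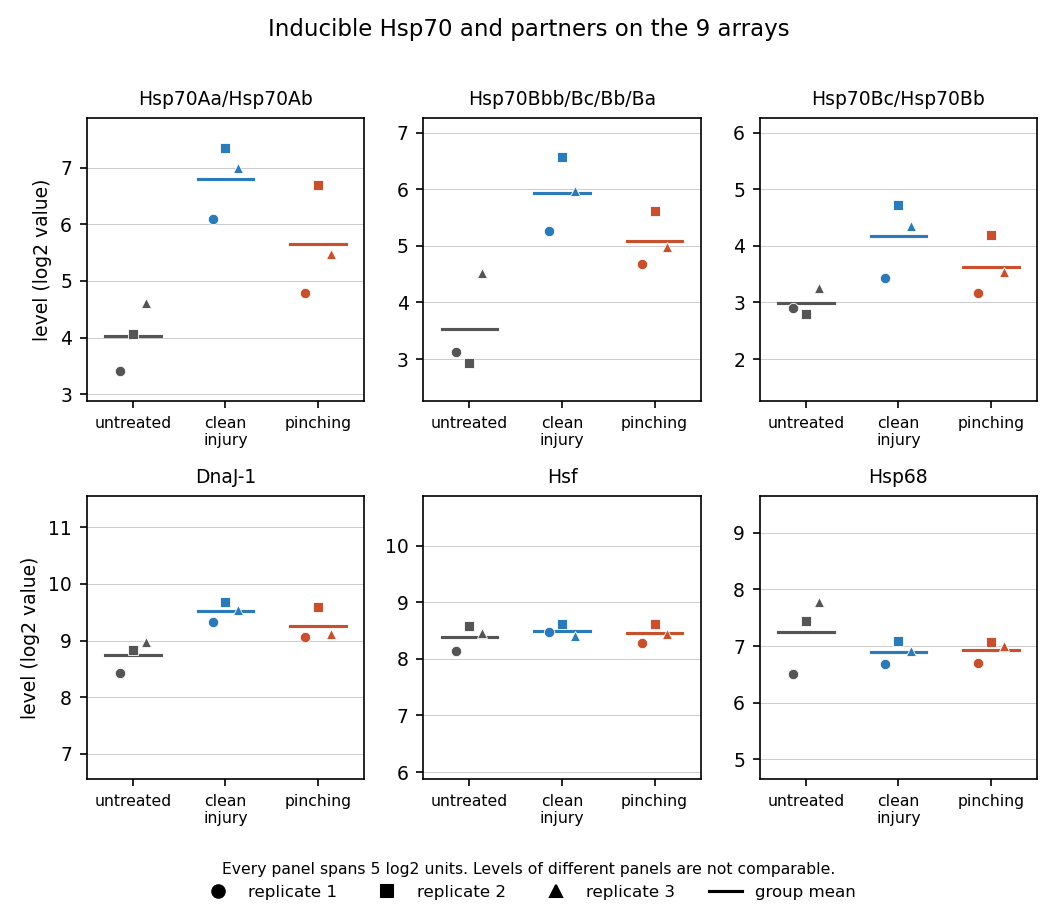
Level (log2 value) of 3 probe sets shared by copies of the inducible *Hsp70* gene, of the J-domain gene *DnaJ-1*, of heat shock factor (*Hsf*) and of *Hsp68* on the 9 arrays, by group, with a line at the group mean. The clean injury arrays of *Hsp70Aa* and *Hsp70Ab* lie between 6.09 and 7.34 and the untreated ones between 3.41 and 4.61, while *Hsf* and *Hsp68* overlap between groups.

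*Hsf*, the gene of heat shock factor, had log2 differences of 0.06 after pinching and 0.11 after clean injury, with adjusted p of 0.841 and 0.651 (limma). *Hsp68*, another inducible gene of the Hsp70 family, stood at 6.52, 7.44 and 7.79 in untreated larvae, 6.68, 7.09 and 6.91 after clean injury and 6.70, 7.08 and 7.01 after pinching, with differences of -0.35 and -0.32 that did not pass. Untreated replicate 1 was the lowest of all, and without it the differences were -0.72 (adjusted p = 0.0535, limma) and -0.68 (adjusted p = 0.0659, limma). Without untreated replicate 3, the highest, they were -0.08 and -0.05. Of 4 other measured small heat shock protein genes none passed by its brightest probe set. The one with the smallest p after pinching was *l(2)efl*, at 12.73, 13.09 and 12.85 in untreated larvae and 13.29, 13.22 and 13.13 after pinching, a difference of 0.32 (adjusted p = 0.132, limma). Its second probe set, named after its values were seen, rose by 0.66 (adjusted p = 0.0323, limma), from 11.17, 11.88 and 11.59 to 12.14, 12.29 and 12.19, and it passed in 3 of the 9 fits, those without untreated replicate 2 or clean injury replicate 1 or 3 (0.48 without untreated replicate 1). A further, dim probe set of the gene stood between 2.42 and 2.95 on all arrays and differed by -0.05. The mean of all its probe sets, the dim one included, differed by 0.31 and did not pass (adjusted p = 0.166, limma). A mean without the dim one was not tested.

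J-domain proteins pass clients to Hsp70 and speed its ATP hydrolysis. Of 13 measured, each by its brightest probe set, 1 was lower and 12 did not pass after pinching. After clean injury 1 was higher and 12 did not pass. Over all probe sets 4.99% were lower after pinching and 5.22% higher after clean injury. The brightest probe set of *jdp* did not pass after clean injury (log2 difference 0.61, adjusted p = 0.203, limma). Its second probe set, named after its values were seen, rose by 0.50 (adjusted p = 0.0291, limma). A dimmer one differed by -0.20 and did not pass. The alternative fits were not looked up for *jdp*. *DnaJ-1*, the partner of cytosolic Hsp70 in the heat shock response, stood at 8.42, 8.83 and 8.97 in untreated larvae, at 9.32, 9.69 and 9.53 after clean injury and at 9.07, 9.60 and 9.11 after pinching. All treated arrays were higher than the untreated ones. The rise after clean injury was 1.71-fold (log2 difference 0.78, standard error 0.18, adjusted p = 0.0256, limma), and it did not pass without untreated replicate 1 (0.61), clean injury replicate 2 (0.69) or clean injury replicate 3 (0.77). After pinching the difference was 0.52 (adjusted p = 0.119, limma), which passed with the replicate number as a block (adjusted p = 0.0218, limma) and was 0.36 without untreated replicate 1.

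The J-domain gene that was lower after pinching was *Sec63*, whose protein recruits BiP to the channel through which proteins enter the ER. It stood at 8.57, 8.55 and 8.71 in untreated larvae, at 8.13, 8.24 and 8.23 after clean injury and at 7.85, 8.29 and 8.12 after pinching. All treated arrays lay below the untreated ones. The differences were -0.52 after pinching (standard error 0.13, adjusted p = 0.0282, limma) and -0.41 after clean injury (adjusted p = 0.0678, limma), the latter passing with the replicate number as a block (adjusted p = 0.0325, limma). Without untreated replicate 1 the difference after pinching was -0.54 and did not pass (adjusted p = 0.0744, limma). Nor did it pass without untreated replicate 3 (-0.47), clean injury replicate 2 (-0.52), pinching replicate 1 (-0.40) or pinching replicate 3 (-0.53).

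The list of ER folding genes has 11 measured genes and includes the channel genes *Sec61alpha* and *Sec61beta*. The probe set that stands for *Pdi* lay between 1.91 and 2.28 on all arrays, and whether it reads above background is not known. Of the 11, 3 were lower after pinching and 2 after clean injury, and none was higher. Over all probe sets 4.99% were lower after pinching and 4.93% after clean injury. The channel genes gave both calls after clean injury, and *CaBP1* was the only folding gene called after pinching. The list's median log2 difference was -0.29 after pinching and -0.17 after clean injury, against -0.02 and -0.04 over all probe sets. *Sec61alpha* and *Sec61beta*, which encode subunits of the same ER channel, fell after both treatments. *Sec61alpha* stood at 10.66, 10.33 and 10.84 in untreated larvae, at 9.82, 9.70 and 9.78 after clean injury and at 9.72, 9.73 and 9.62 after pinching. *Sec61beta* stood at 11.89, 11.70 and 12.02, then 11.11, 11.12 and 11.07, and 10.70, 11.04 and 10.90. In both genes the treated arrays lay clear of the untreated ones. The falls after pinching were 1.89-fold (adjusted p = 0.00221, limma) and 1.98-fold (adjusted p = 0.00109, limma), those after clean injury were 1.79-fold and 1.71-fold, and all 4 calls were kept in each of the 9 fits that left out an array.

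*CaBP1*, which encodes a protein disulfide isomerase of the ER, was the other one lower after pinching, at 9.05, 9.39 and 9.11 against 9.83, 9.56 and 9.73 (log2 difference -0.52, adjusted p = 0.0327, limma), and it passed in 4 of the 9 fits, those without untreated replicate 2, clean injury replicate 1 or 3, or pinching replicate 2 (-0.46 without untreated replicate 1). *Grp170*, the large Hsp70 relative that releases ADP from BiP, stood at 8.80, 8.81 and 9.37 in untreated larvae and 8.34, 8.66 and 8.39 after pinching. Its difference of -0.53 did not pass (adjusted p = 0.0707, limma), but did with the replicate number as a block (adjusted p = 0.0387, limma), after quantile normalization (-0.54) and after centring each array on its median (-0.56). Of 4 measured regulators of the unfolded protein response none passed, and the one with the smallest p after pinching, *crc*, the fly's ATF4, had a difference of 0.14 (adjusted p = 0.527, limma). Of 4 Hsp70 relatives, *Grp170* among them, none passed.

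The other mitochondrial chaperones and proteases gave 1 gene higher and 2 lower of 11 measured, with these counts after either treatment and medians of 0.03 and -0.09. Over all probe sets 4.21% were higher and 4.99% lower after pinching, and 5.22% and 4.93% after clean injury. *CG11267*, listed in the gene table as *Hsp10*, encodes the lid of the Hsp60 barrel. It stood at 11.003, 10.05 and 10.79 in untreated larvae, at 9.69, 9.66 and 9.63 after clean injury and at 9.61, 9.73 and 9.76 after pinching. Untreated replicate 2 was the lowest of its group here, as it was for *Hsp60A*, and still lay above all treated arrays. The fall was 1.89-fold after pinching (log2 difference -0.92, adjusted p = 0.0193, limma) and 1.94-fold after clean injury (-0.96, adjusted p = 0.0154, limma). Without untreated replicate 1 it was -0.72 (adjusted p = 0.0714, limma) and -0.76 (adjusted p = 0.0568, limma), and each call was kept in 5 of 9 such fits. Both calls were also lost without untreated replicate 3 (-0.83 and -0.87), that after pinching without pinching replicate 1 (-0.87) or 2 (-0.93), and that after clean injury without clean injury replicate 1 (-0.97) or 2 (-0.96).

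*CG11779* was put in the mitochondrial list, although the annotation used here gives no role for it. Its log2 differences were -0.85 and -0.81 (adjusted p = 0.00755 after pinching and 0.00964 after clean injury, limma). It stood at 6.92, 6.45 and 7.01 in untreated larvae, 5.98, 5.98 and 5.99 after clean injury and 5.78, 6.15 and 5.90 after pinching. *ClpX*, the unfolding subunit of the ClpXP protease of the matrix, went the other way. It stood at 8.81, 9.30 and 9.02 in untreated larvae, at 9.91, 10.13 and 10.13 after clean injury and at 9.61, 10.21 and 10.10 after pinching, with every treated array above the untreated ones. Its rise was 1.91-fold after pinching (adjusted p = 0.00873, limma) and 2.02-fold after clean injury (adjusted p = 0.00566, limma). The calls of *CG11779* and *ClpX* were kept in each of the 9 fits that left out an array. *ClpP*, the proteolytic subunit, had differences of 0.03 and -0.09.

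**Figure D4:**
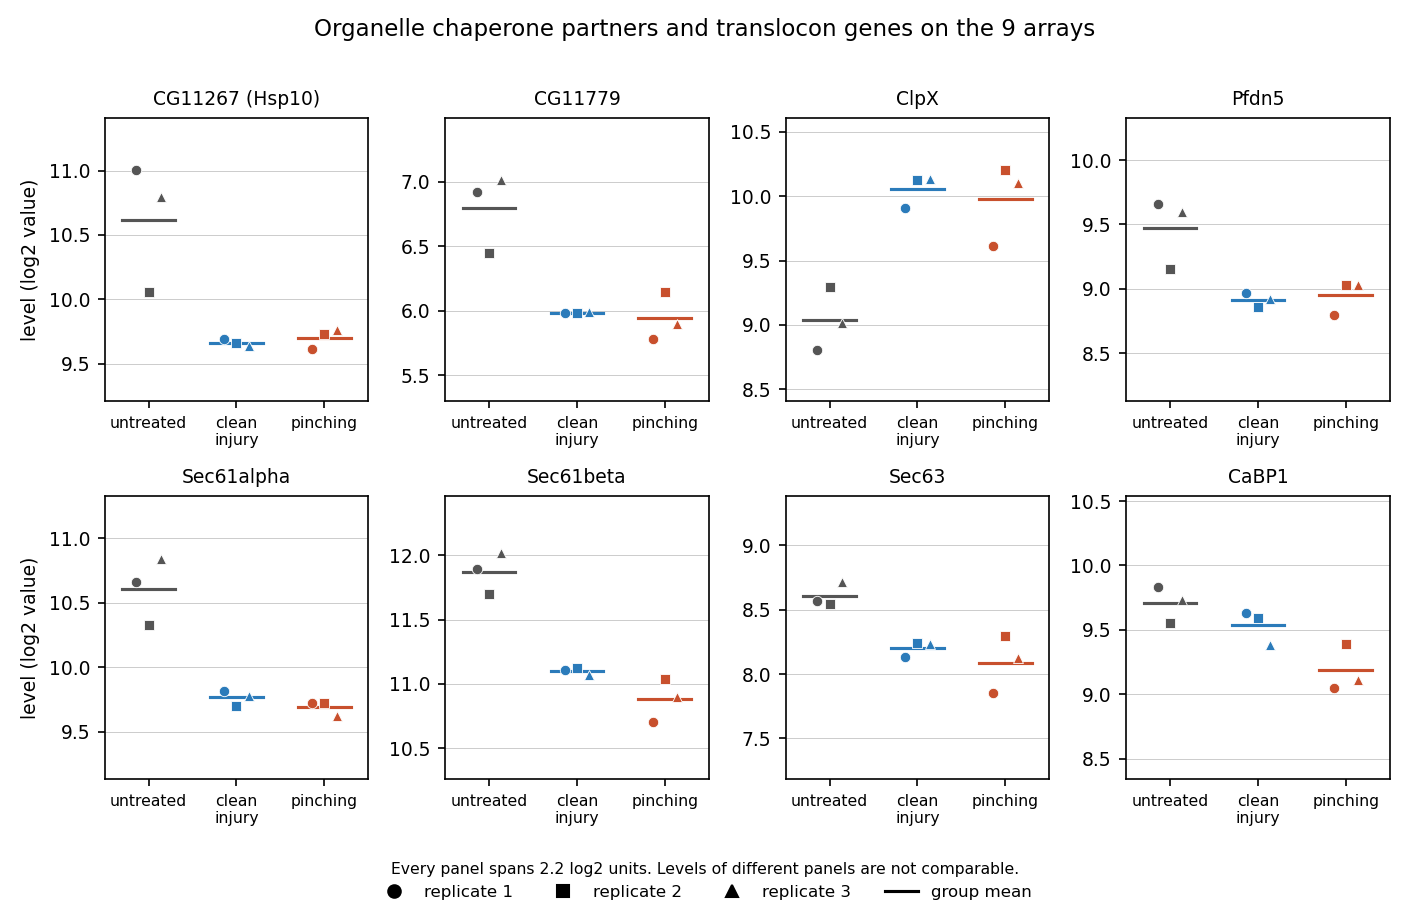
Level (log2 value) of 8 genes related to the chaperones on the 9 arrays, by group, with a line at the group mean. The upper row holds genes of the mitochondrial list and *Pfdn5*, and the lower row ER genes. The treated arrays of *CG11267* (*Hsp10*) lie between 9.61 and 9.76 below untreated arrays of 10.05 to 11.003, and *ClpX* is the only one of the 8 that was higher.

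Of the cytosolic folding machinery, the chaperonin CCT, which folds actin and tubulin, and prefoldin, which delivers them, were measured with 14 genes. After either treatment 1 was lower and 13 did not pass, while 4.99% of all probe sets were lower after pinching and 4.93% after clean injury. Of the 14 differences 13 were negative, with medians of -0.21 after pinching and -0.14 after clean injury. Over all probe sets the medians were -0.02 and -0.04, and whether the list moved as a whole was not tested. *Pfdn5* was the one lower, at 9.66, 9.16 and 9.60 in untreated larvae, 8.96, 8.86 and 8.92 after clean injury and 8.80, 9.03 and 9.03 after pinching. Its differences were -0.52 (adjusted p = 0.0478, limma) and -0.55 (adjusted p = 0.0341, limma). They were -0.43 and -0.46 without untreated replicate 1, and neither passed. The call after pinching was kept in 1 of 9 fits, that without untreated replicate 2, and the call after clean injury in 4, that one and those without any 1 of the pinched arrays. Of 9 measured co-chaperones of Hsp90 and Hsp70 none passed, and the smallest p after pinching was that of *Sgt*, whose protein binds both chaperones, with a difference of -0.40 (adjusted p = 0.128, limma) that passed only after quantile normalization (-0.41).

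Because small heat shock protein genes also answer to ecdysone, a list of 12 measured genes around its receptor and early response was counted. After either treatment 1 was higher, 1 was lower and 10 did not pass. Over all probe sets 4.21% were higher and 4.99% lower after pinching, and 5.22% and 4.93% after clean injury. Of the 12 differences 10 were positive, and whether the list moved as a whole was not tested. *MsrA*, listed also as *Eip71CD*, a methionine sulfoxide reductase gene, stood at 8.19, 8.68 and 8.16 in untreated larvae, at 9.55, 9.69 and 9.26 after clean injury and at 8.94, 9.32 and 9.24 after pinching. It rose 2.23-fold after clean injury (adjusted p = 0.00285, limma), called in all 9 fits, and 1.77-fold after pinching (adjusted p = 0.0155, limma), which did not pass without untreated replicate 1 (log2 difference 0.75), untreated replicate 3 (0.73) or pinching replicate 2 (0.75). *Hr38*, a nuclear receptor gene, fell by 1.72 on the log2 scale after pinching and by 1.35 after clean injury (adjusted p = 0.0179 and 0.0456, limma), and without untreated replicate 1 these were -2.05 and -1.69 and both passed. The call after pinching was lost without untreated replicate 3 (-1.46) or pinching replicate 1 (-1.43). That after clean injury passed in 3 of 9 fits, those without untreated replicate 1, clean injury replicate 3 or pinching replicate 1. A second probe set of *Hr38* differed by -0.35 after either treatment and did not pass (adjusted p = 0.188 after pinching and 0.181 after clean injury, limma). The ecdysone receptor gene *EcR* had differences of 0.64 and 0.80, with adjusted p of 0.206 and 0.110 (limma). In the direct comparison of pinching with clean injury no gene of any of these lists passed.

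**Figure D5:**
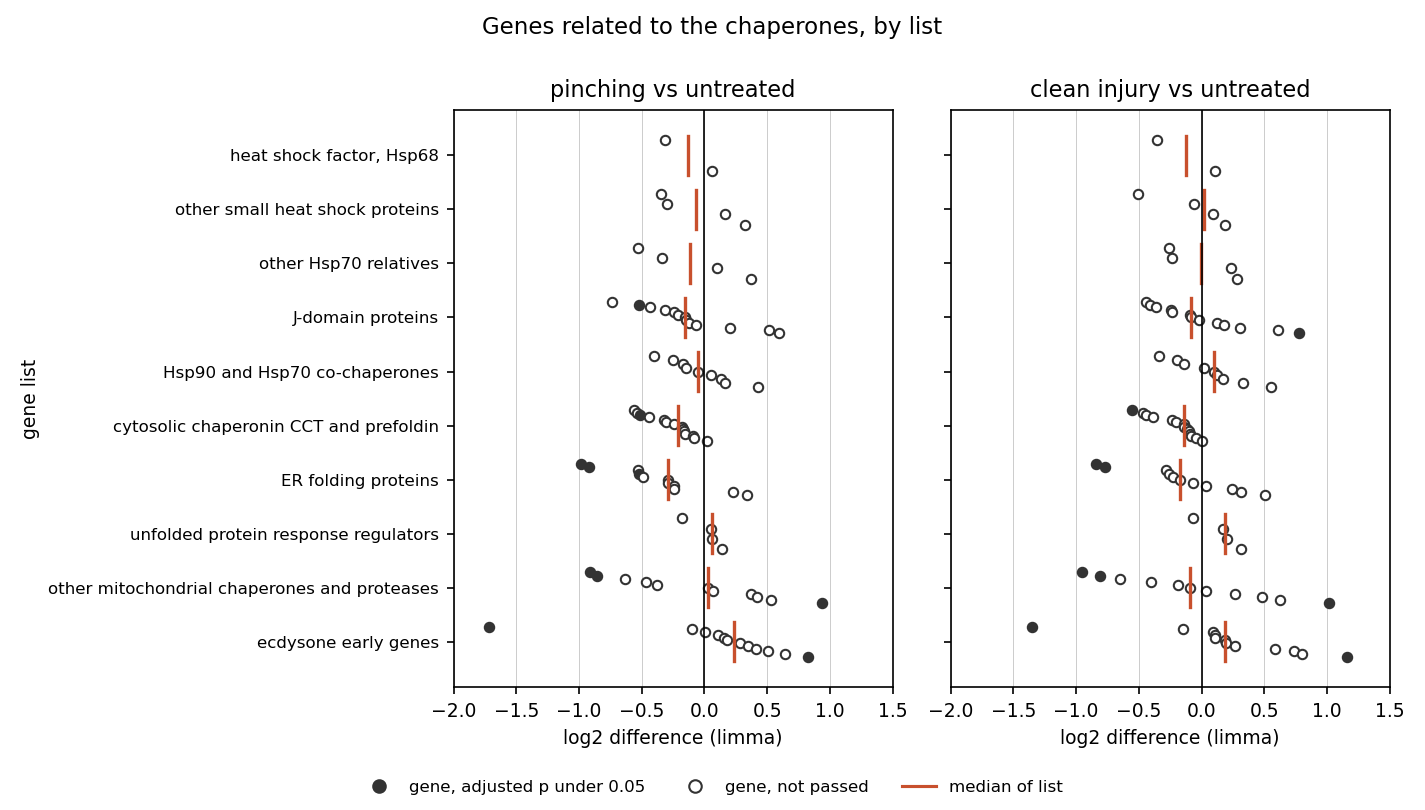
Log2 difference from untreated larvae (x axis) of each measured gene related to the chaperones, by list, after pinching and after clean injury, with filled points at an adjusted p under 0.05 and a bar at the median of the list. The list of ER folding genes, which includes *Sec61alpha* and *Sec61beta*, has a median of -0.29 after pinching and -0.17 after clean injury. *ClpX* is the only filled point above 0 in the mitochondrial list.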

How the data were processed

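RNA of whole larvae had been hybridized to 9 arrays. For each array the authors deposited a single log2 value per probe set. Their methods name R, and how the values were normalized is not stated in the sources at hand. Array medians were 4.94 to 5.08, and no further scaling was applied. Of 18952 probe sets, 183 controls were left out. No filter on dim probe sets was set, and detection calls were not used here. The number of arrays limits the precision.

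limma 3.58.1 in R 4.3.3 (lmFit, contrasts.fit, eBayes) fitted a mean per group to all 9 arrays, with two-sided tests adjusted by Benjamini-Hochberg over 18769 probe sets. Python 3.11.15, pandas 2.3.3, numpy 2.4.6 and matplotlib 3.10.9 made tables and plots. The fit was tested on simulated arrays. Gene names came from the platform annotation, and older names were matched in the RefSeq gene table. The members and the related lists were chosen with earlier results of these data known. Named were all member probe sets and, of each list, up to 4 genes that passed, or else the one with the smallest p after pinching, with the brightest probe set standing for a gene. Exceptions are stated where they occur.

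Deviations from the group mean correlated between arrays of the same replicate number in all 9 pairs (r from 0.189 to 0.548, against -0.463 to 0.160 for other numbers). Equal numbers were therefore treated as pairs in an alternative fit, with that number as a block. The main fit, which gave the calls, did not use the number and so leaves any pairing out. The pairing is inferred from the values, since the labels state none. Fits with that number as a block are given beside results they change. The alternatives were quantile normalization, median centring, leaving out the dimmest 40% of probe sets or those that can match several transcripts, the methods' t-test, a robust prior with an intensity trend, a fit to the 6 arrays compared, the block, a 2-fold minimum, the mean of a gene's probe sets, and leaving out each array.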

Additional observations from a re-analysis of the deposited data

How the results depend on the processing

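For pinching against untreated larvae, 2 of the 8 chaperone probe sets were called. The number was 1 without probe sets that can match several transcripts, which leaves 3 of the 8, and 1 with only the 6 arrays compared. It was 0 with the methods' t-test or a 2-fold minimum, 3 with the replicate block, and 0 to 2 when an array was left out. For clean injury against untreated larvae 1 was called, 0 under the transcript filter, the t-test and the 2-fold minimum, 3 with the replicate block, and 0 to 1 when an array was left out. The transcript filter takes out the probe set of *Hsp60A*, so in both comparisons the count under it leaves the calls of *Hsp60A* untested. For pinching against clean injury it was 0 under every alternative run. With the replicate block 3071 of all probe sets were called after pinching against 1727 without it, and 3502 against 1906 after clean injury. Besides the calls given with the results it added *CG4452* and *CG4080* after clean injury. It changed no other call of a gene named there. The tissue genes, *jdp* and the further probe sets of *Hr38* and *l(2)efl* were not looked up. Signs changed for differences that had not passed. The mean of the probe sets of *Hsp22* and *CG4456* gave -0.064 after pinching, 0.033 after clean injury and -0.097 between the treatments. When an array was left out, the brighter of them ranged from -0.018 to 0.24 after pinching, and *Hsc70-3* from -0.19 to 0.038 after clean injury. Between the treatments *Hsp26* ranged from -0.26 to 0.043, *Hsp27* from -0.27 to 0.30, *Hsc70-4* from -0.16 to 0.042 and *Hsp60A* from -0.16 to 0.041. The dim *Hsp70B* probe set gave -0.022 and -0.0028 after median centring, and ranged from -0.083 to 0.11 after pinching, -0.053 to 0.14 after clean injury and -0.075 to 0.058 between the treatments. The t-test with adjustment called 39 of all probe sets after pinching and 121 after clean injury. None of them was a member, list gene, neighbour or shared probe set named in the report. For *jdp* and the further probe sets of *Hr38* and *l(2)efl* this was not looked up. The *Hsp70B* probe set with a difference of 1.56 after pinching passed after quantile normalization (1.58), median centring (1.53), the trend with a robust prior and the 40% filter (1.56 each) and as the mean of its probe sets (0.79), and that of *Hsp70Aa* and *Hsp70Ab* under that filter (1.61). In the fit to 6 arrays the pinching calls of *Hsc70-5*, *Sec63*, *Pfdn5*, *CaBP1*, *CG11267*, *CG4452* and the second *l(2)efl* probe set were lost, with adjusted p (limma) from 0.0536 for *CG11267* to 0.103 for *Pfdn5*. That of *Pfdn5* was also lost under the transcript filter and the robust prior (adjusted p = 0.0525, limma), and that of *Hr38* after clean injury after quantile normalization (-1.33) and in the 6 arrays (-1.35). After clean injury *Sec63* passed after quantile normalization (-0.46), median centring (-0.45) and in the 6 arrays (-0.41), *Sgt* after quantile normalization (-0.39) and *CG4080* under the 40% filter (0.45). The cause of these changes was not tested, apart from fewer arrays or probe sets where an alternative removes them.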
